A study of Mus musculus with 2 samples.

Results

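The 10 genes described here drive or restrain the passage from G1 to S phase, and were read in Dgcr8 knockout embryonic stem (ES) cells of the mouse. They are the D cyclins Ccnd1, Ccnd2 and Ccnd3, the E cyclins Ccne1 and Ccne2, the cyclin-dependent kinases Cdk2, Cdk4 and Cdk6, and the pocket proteins Rb1 and Rbl1. The genes were chosen by name, and the Ensembl identifiers of all 10 were found among the 43629 genes of the count tables. The series holds 1 group of 2 polyadenylated RNA libraries, replicates A and B, from blastocyst-derived cells of a 129/Ola background at passage 7. Both carry the Dgcr8 knockout per the labels, made by a paired CRISPR/Cas9 approach named in the series title. No unedited library was compared, so every value below is a level in knockout cells and not an effect of the knockout. Both sample titles carry the codes KO2 and d5, which the labels do not explain. Nor do they name separate cultures for the replicates. The p-values below set the difference between these 2 libraries against counting error alone. They hold no estimate of the spread between cultures, and the difference may be technical.

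D cyclins partner CDK4 and CDK6, and the active kinases phosphorylate the pocket proteins, which otherwise hold E2F transcription factors in check. Released E2F raises transcription of the E cyclins, which activate CDK2 and carry the cell into DNA replication. ES cells are known for a short G1 and for high cyclin E activity. Dgcr8 is needed to make most microRNAs, and in ES cells the miR-290 family is known to restrain inhibitors of this transition, among them Cdkn1a and Rbl2.

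The libraries held 27872396 counts in A and 30327146 in B. Dgcr8 itself had 1253 and 1942 counts, which do not check the genotype because counts per gene do not show which exons were read. ES cell markers were present throughout, with all 7 at 1 CPM (count per 1000000 counts of the library) or more in both libraries and a summed level of 9183 CPM in A and 6044 in B. Dppa5a held most of that difference, at 4252 and 1767 CPM. Pou5f1 (1805 and 1542), Tdgf1 (776 and 678), Nanog (571 and 453) and Sox2 (473 and 313) were also lower in B. Zfp42 (668 and 648) and Esrrb (638 and 642) were close. Of 10 feeder fibroblast markers 5 reached 1 CPM in both libraries, Lum and Postn had 0 counts, and the sum was 223 and 210 CPM. Vim held most of that sum in both libraries (175 and 180 CPM). Thy1 (31.4 and 21.9), Pdgfrb (10.7 and 3.59) and Col1a1 (2.91 and 1.22) were lower in B. Twist1 was slightly higher in B, as were Col1a2, Col3a1 and Dcn at under 1 CPM. Of 10 endoderm markers 6 reached 1 CPM in both, with none at 0, and the sum was 83.4 CPM in A and 237 in B. Lama1 held most of that difference (47.3 and 142 CPM). Col4a1 (21.1 and 56.7), Cubn (1.51 and 14.3) and Dab2 (2.37 and 12.0) were also higher in B. So were Gata6, Sox7, Sox17 and Foxa2, at lower levels. Only Gata4 (7.10 and 4.91) and Amn (2.30 and 1.22) were lower in B. In bulk RNA, fewer cells of a type and less RNA per cell cannot be told apart.

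Per length of a gene's exon union, 1 kinase and 1 E cyclin led the set. Levels between genes are given in RPKM, the CPM per 1000 bases of the union of a gene's exons, as mean ± SD of both libraries (n = 2). Cdk4 was highest at 175 ± 4.15 RPKM and Ccne1 followed at 139 ± 20.6. Ccnd1 (54.9 ± 3.51) and Ccnd3 (42.5 ± 1.08) came next. Cdk2 (14.7 ± 0.302) and Ccne2 (7.73 ± 3.78) held the middle. Rb1 (3.85 ± 1.19) and Rbl1 (3.62 ± 0.518) were low, and Cdk6 (1.29 ± 0.361) and Ccnd2 (1.29 ± 1.00) were lowest. The values of A and B overlapped between Rb1 and Rbl1 and between Cdk6 and Ccnd2, so the order within those pairs is not resolved. Ccne2 and Rb1 were close in A, at 5.06 and 4.69 RPKM with overlapping counting limits (4.62 to 5.53 and 4.37 to 5.03). Per length of the transcript with the longest coding sequence Rb1 was the higher of them in A (6.06 against 5.88 RPKM). By that length Ccnd3 also passed Ccne1 in A (180 against 165 RPKM), but not in B (173 against 204). The values of the other neighbours did not overlap per exon union. A level of at least 1 CPM in A and in B was reached by 10 of these 10 genes and by 30.6% of all genes. Among genes at that level Cdk4 lay at percentile 97.7 by RPKM and Ccnd2 at percentile 15.1.

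**Figure D1:**
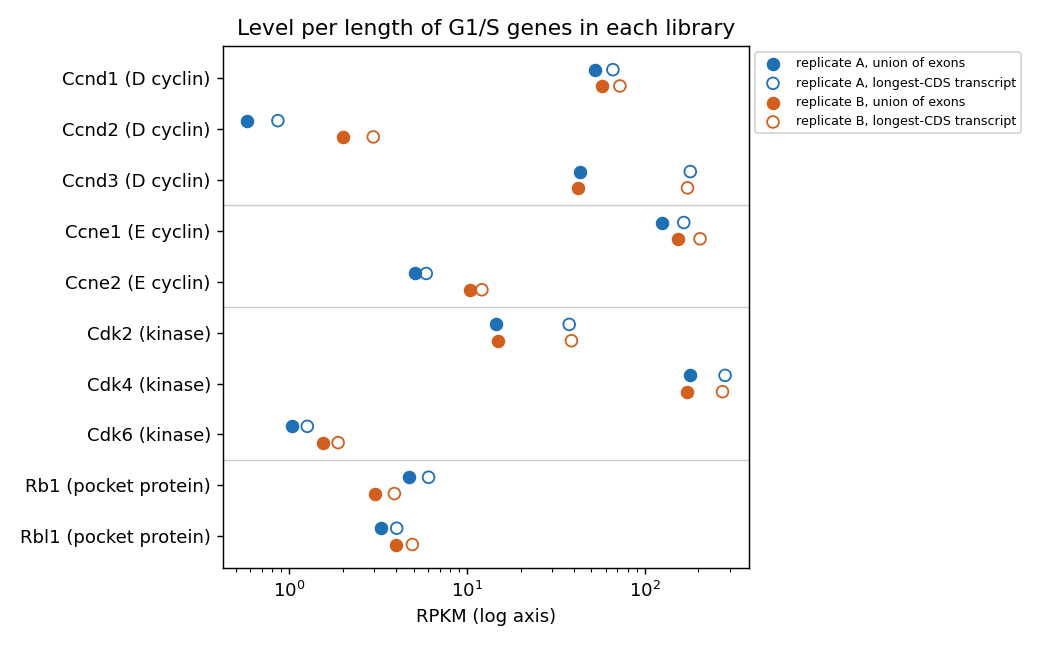
Level of each gene in RPKM on a log axis, in replicate A (blue) and replicate B (orange), per length of the exon union (filled) or of the transcript with the longest coding sequence (open). Per exon union, Cdk4 and Ccne1 sit above 100 RPKM and Ccnd2 and Cdk6 near 1. Ccnd3 moves most between the 2 lengths, from 42.5 to 177 RPKM on average.

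Ccnd1 and Ccnd3 were abundant and Ccnd2 was scarce. Ccnd1, the D cyclin induced by many growth signals (chromosome 7, 144929931 to 144939925, minus strand, GRCm38), had 6882 counts in A and 8198 in B, or 52.4 and 57.4 RPKM. Ccnd3 (chromosome 17, 47505051 to 47599691, plus strand) had 10593 and 11118 counts, or 43.3 and 41.8 RPKM. Ccnd2 (chromosome 6, 127125162 to 127152193, minus strand) had 152 and 569 counts, or 0.580 and 1.99 RPKM. Both libraries therefore gave Ccnd2 a small part of the summed D cyclin RPKM, 0.602% in A and 1.97% in B. Ccnd1 exceeded Ccnd2 90.5-fold in A (95% Clopper-Pearson limits 77.0 to 107) and 28.8-fold in B (26.4 to 31.4).

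Whether Ccnd1 or Ccnd3 was the main D cyclin depended on the length used. Per length of the exon union, Ccnd1 was 1.21-fold above Ccnd3 in A and 1.37-fold in B. The union of Ccnd3 spans 8775 bases over 21 annotated transcripts, whereas its transcript with the longest coding sequence spans 2113. Ccnd1 differs less, with 4709 against 3740 bases. Per length of those single transcripts Ccnd3 was 2.72-fold above Ccnd1 in A and 2.4-fold in B, at 177 against 69.1 RPKM on average. Gene counts do not show which transcripts were present, so this order was not settled. Ccnd3 shares 361 exonic bases with Bysl on the opposite strand (3472 and 4144 counts), and Ccnd1 shares 1100 with LTO1 (285 and 269 counts). A pseudogene, Ccnd3-ps, matched 881 bases of Ccnd3 at 96.3% identity and held 22 and 30 counts.

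The D cyclin messages share matches to microRNA seeds in their annotated 3′ untranslated regions, which are shown because Dgcr8 acts in making microRNAs. Mature sequences are from RefSeq on GRCm38.p6, 5′ to 3′, with the seed (bases 2 to 8) in capitals.
mmu-miR-294-3p: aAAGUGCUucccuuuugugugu
mmu-miR-17-5p: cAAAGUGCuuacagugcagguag
mmu-miR-16-5p: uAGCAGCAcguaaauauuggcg
A match to the miR-16 seed, TGCTGCT on the message strand, was found once in each D cyclin. It is printed in capitals with 8 bases on either side, on the transcript with the longest coding sequence in GENCODE M21.
Ccnd1: tgccaccaTGCTGCTggcccggg
Ccnd2: tcacggtgTGCTGCTattttaga
Ccnd3: gctttgctTGCTGCTtagcttct
These matches lie at chr7:144930395-144930401 on the minus strand, chr6:127128542-127128548 on the minus strand and chr17:47599294-47599300 on the plus strand of GRCm38. Of all 20617 annotated 3′ untranslated regions 18.3% hold this match, and the share grows with length. Among regions within 10% of its own length it was 35.9% for Ccnd1, 53.7% for Ccnd2 and 14.1% for Ccnd3. Ccnd1 and Ccnd2 also hold 1 match each to the miR-294 seed (AGCACTT), overlapped by a match to the miR-17 seed (GCACTTT), and Ccnd3 holds neither. A miR-294 match is held by 28.9% of regions of like length for Ccnd1, 53.2% for Ccnd2 and 9.96% for the shorter Ccnd3.
Ccnd1: catttcaaAGCACTTttggtcag
Ccnd2: attagaaaAGCACTTtgaaaatt
These matches lie at chr7:144931677-144931683 and chr6:127129341-127129347, both on the minus strand. A seed match is a stretch of letters and does not show that a microRNA bound there.

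Ccne1 was the main E cyclin in both libraries. Ccne1 (chromosome 7, 38097984 to 38107534, minus strand) had 9218 counts in A and 12382 in B, or 124 and 153 RPKM. Ccne2 (chromosome 4, 11191351 to 11204779, plus strand) had 493 and 1103 counts, or 5.06 and 10.4 RPKM. The lowest Ccne1 value was thus far above the highest Ccne2 value. The ratio of Ccne1 to Ccne2 was 24.5 in A (22.4 to 26.9) and 14.7 in B (13.9 to 15.7). Per length of the transcript with the longest coding sequence it was 28.1 and 16.9, so the choice of length did not change the order. Ccne2 shares 609 exonic bases with Ints8 on the opposite strand, a gene with 1600 and 2345 counts. The libraries were reverse-stranded per the labels, but whether counting used the strand was not stated, so reads of the 2 genes may not be told apart.

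The untranslated region of Ccne1 is short, at 531 bases, and holds 1 match to the miR-16 seed, a match found in 9.13% of regions within 10% of that length.
Ccne1: tttgtaagTGCTGCTatgtctat
It lies at chr7:38098024-38098030 on the minus strand. The corresponding region of Ccne2, of 1577 bases, held no match to the miR-16, miR-294, miR-17 or let-7a seed and 1 to the miR-34a seed.

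Cdk4 was the main G1 kinase. Cdk4 (chromosome 10, 127063534 to 127067920, plus strand), a partner of the D cyclins, had 16157 counts in A and 17001 in B, or 178 and 173 RPKM. Cdk6 (chromosome 5, 3341485 to 3531008, plus strand), the other kinase of that kind, had 405 and 657 counts, or 1.04 and 1.55 RPKM. Cdk2 (chromosome 10, 128697939 to 128705031, minus strand), the partner of the E cyclins, had 2514 and 2816 counts, or 14.5 and 14.9 RPKM. The 3 kinases did not overlap in either library. Cdk4 exceeded Cdk6 172-fold in A (156 to 190) and 111-fold in B (103 to 121), and of the summed RPKM of this pair Cdk6 held 0.579% and 0.890%.

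Cdk4 exceeded Cdk2 12.3-fold in A (11.8 to 12.8) and 11.6-fold in B (11.1 to 12.0). By counts, before the fit on GC content and length given below, this was the steadiest of the 10 paralog ratios computed. Per length of single coding transcripts it fell to 7.53 and 7.08. Cdk4 shares 641 exonic bases with Tspan31 on the opposite strand, which had 1917 and 1792 counts, far fewer than Cdk4. Of the G1 kinases, Cdk6 has the longest untranslated region, of 10217 bases, with 3 matches to the miR-294 seed, 3 to the miR-16 seed and 4 to the miR-34a seed. Among the 42 regions within 10% of that length, 76.2% hold a miR-294 match and 47.6% a miR-34a match. The shorter region of Cdk4, of 899 bases, holds 2 miR-294 matches. A miR-294 match is held by 9.59% of regions within 10% of the Cdk4 length.

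Rb1 and Rbl1 were at like levels, and their order differed between the libraries. Rb1, the retinoblastoma gene (chromosome 14, 73183673 to 73325822, minus strand), had 787 counts in A and 550 in B, or 4.69 and 3.02 RPKM. Rbl1, which encodes p107 (chromosome 2, 157145893 to 157204534, minus strand), had 544 and 725 counts, or 3.26 and 3.99 RPKM. Rb1 was therefore the higher of the pair in A, 1.44-fold (1.29 to 1.61), and the lower in B, where Rbl1 was 1.32-fold above it (1.18 to 1.48). Over both libraries the log2 ratio of Rb1 to Rbl1 was 0.062 ± 0.66, within the replicate spread. Rbl2, which encodes the related p130 and is not among the 10 genes, had 309 and 295 counts. At 1.47 and 1.29 RPKM it was the lowest pocket protein gene in both libraries, 15.6% and 15.5% of the family's summed RPKM. Rb1 shares exonic bases with Rcbtb2 (488) and Lpar6 (408) on the opposite strand, genes with 652 and 692, and with 367 and 464 counts in A and B.

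Rbl1 carries a miR-294 match, overlapped by a miR-17 match, at base 22 of its untranslated region, and Rbl2 carries a miR-294 match at base 1384 of 1398.
Rbl1: ctgatcaaAGCACTTttggattg
Rbl2: ttcaataaAGCACTTataaatta
They lie at chr2:157147478-157147484 on the minus strand and chr8:91123830-91123836 on the plus strand. A miR-294 match is held by 17.9% of regions within 10% of the Rbl1 length and by 16.4% for Rbl2. Rbl2 also holds 2 miR-17 matches and 1 miR-16 match, and Rb1 holds 1 miR-17 match and no miR-294 match. Over the 10 genes, 5 held a miR-294 match (13.1% of all annotated regions), 5 a miR-17 match (10.9%) and 5 a miR-16 match (18.3%). A miR-34a match was in 2 (12.9%) and a let-7a match in 1, Cdk4 (7.98%). These shares are over regions of every length, and several of the 10 genes have long ones. Among regions within 10% of a gene's own length, the miR-294 share ran from 5.14% for Ccne1 to 76.2% for Cdk6.

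Because E2F factors act on genes of this pathway, promoters were searched on both strands for TTTGGCGC, TTTGCCGC, TTTCGCGC and TTTCCCGC. RefSeq promoters of GRCm38.p6, 250 bases before to 50 after the start, were at hand for 6 of the 10 genes, and not for Ccnd1, Ccnd2, Ccne2 and Rb1. A motif was found in 2 of 7 promoters (Ccnd3 has 2), those of Rbl1 and Cdk2, against 2.27% of all 32851 promoters. The 150 bases before each start are given on the gene's strand, with the motif in capitals.
Rbl1: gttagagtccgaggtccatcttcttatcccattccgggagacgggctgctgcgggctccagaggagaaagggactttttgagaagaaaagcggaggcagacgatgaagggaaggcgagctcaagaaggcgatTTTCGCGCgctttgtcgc
Cdk2: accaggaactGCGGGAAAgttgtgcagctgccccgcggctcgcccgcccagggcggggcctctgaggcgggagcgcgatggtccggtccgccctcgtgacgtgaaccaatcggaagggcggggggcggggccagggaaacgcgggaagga
The Rbl1 stretch is chr2:157204535-157204684 and the Cdk2 stretch chr10:128705052-128705201, both on the minus strand. The motif begins 18 bases before the start in Rbl1, and 140 bases before it in Cdk2, where it reads as the reverse complement of TTTCCCGC. No match in the other windows says only that these letters are not there.

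**Figure D2:**
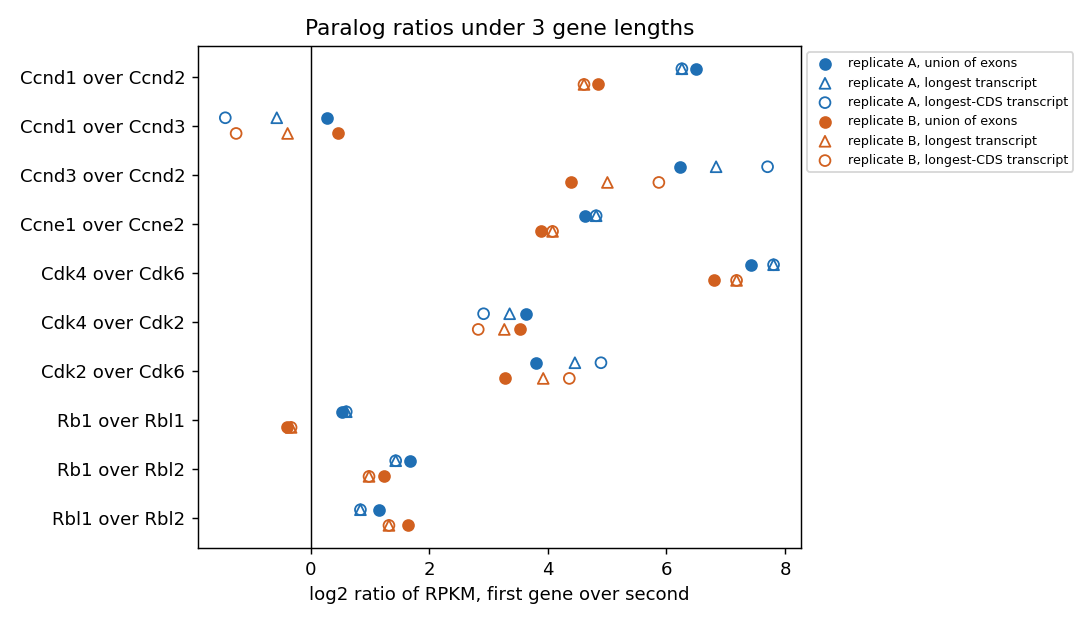
Log2 ratio of RPKM of the first gene over the second for 10 pairs of paralogs in replicate A (blue) and replicate B (orange), under 3 gene lengths (filled circles, exon union; triangles, longest transcript; open circles, transcript with the longest coding sequence). Ccnd1 over Ccnd3 crosses 0 with the length and Rb1 over Rbl1 with the library, and the other 8 pairs stay above 0.

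The paralog ratios also differed between the libraries. Fisher's exact test (two-sided) on the counts of both paralogs in A and B, which needs neither length nor library size, gave an adjusted p under the threshold of 0.05 for each of the 10 pairs. These tests compare the reads of 2 libraries, not conditions. The largest shift was that of Ccnd3 over Ccnd2, 3.57-fold smaller in B (adjusted p = 1.1e-50), followed by Ccnd1 over Ccnd2, 3.14-fold smaller (1.5e-40). Rb1 over Rbl1 was 1.91-fold smaller in B (7.9e-16), Ccne1 over Ccne2 1.67-fold (3.1e-20) and Cdk4 over Cdk6 1.54-fold (1.8e-11). By these counts the scarcer paralog of the D cyclins, the E cyclins and the pair of Cdk4 and Cdk6 took a larger part in B than in A. With a fit on GC content and length subtracted this held for Ccnd2, but not for the other families. The log2 ratio of B over A left after that subtraction was 0.69 for Ccne1 against 0.59 for Ccne2. It was 0.37 for Cdk4 against -0.072 for Cdk6. By counts Cdk4 over Cdk2 shifted least, 1.06-fold (Fisher's exact adjusted p = 0.035). After the fit these genes lay further apart, at 0.37 and 0.0997, than Ccne1 and Ccne2.

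Gene by gene, all 10 differed between replicates, as did most genes. The counts of A and B were compared by an exact binomial test (two-sided), with library sizes scaled by TMM and Benjamini-Hochberg adjustment over 14583 genes. It called 10 of 10, where 76.8% of all tested genes were called. Of the 10, 9 were higher in B, where 38.4% of tested genes were called higher in B, and 1, Rb1, was higher in A, where 38.4% were called higher in A. Their median log2 ratio of B over A, on TMM-scaled CPM + 0.5, was 0.30, against -0.014 over all tested genes. A difference of at least 1.5-fold was seen in 3 of 10, where 40.0% of tested genes reached it in either direction. All 3 were higher in B (19.4% of tested genes) and 0 in A (20.7%). At these depths small differences were called too, such as 1.03-fold for Cdk4. With library totals in place of TMM 9 of 10 were called (77.4% of genes), 6 higher in B (33.3%) and 3 in A (44.1%), since Ccnd3 and Cdk4 turned to slightly higher in A.

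Before that fit the scarce paralogs Ccnd2, Ccne2 and Cdk6 differed most. Ccnd2 was 3.67-fold higher in B (95% limits 3.06 to 4.42; exact binomial adjusted p = 7.2e-55), a ratio larger in size than 98.3% of those of all tested genes. Ccne2 was 2.19-fold higher (1.97 to 2.44; exact binomial adjusted p = 2.7e-50) and Cdk6 1.59-fold (1.4 to 1.8; 3.2e-13 by the same exact test). Rb1 was 1.46-fold higher in A (1.31 to 1.63; exact binomial adjusted p = 1.9e-11). The ratio was larger in size than those of 89.4% of tested genes for Ccne2, 67.5% for Cdk6 and 57.9% for Rb1. The other 6 genes differed by less, from 1.03-fold for Ccnd3 and Cdk4 to 1.32-fold for Ccne1, the gene of highest level among them after Cdk4. The summed endoderm markers (83.4 CPM in A, 237 in B) and ES cell markers (9183 and 6044) moved beside these shifts. Most of each difference lay in 1 gene. Most other endoderm markers were also higher in B, and most other ES cell markers lower. The part of either in the result was not tested.

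GC content moved with the difference between libraries. Across tested genes the median log2 ratio of B over A ran from 0.53 in the lowest 10% of genes by GC content to -0.57 in the highest 10%. Ccne2 (36.3% GC), Rb1 (41.2%), Rbl1 (42.1%) and Cdk6 (45.1%) had the lowest GC content of the set, and Ccnd3 the highest (56.7%). After subtraction of a smooth fit on GC content and length, 8 of 10 were called, against 70.8% of genes. Of these 7 were higher in B (36.6% of genes) and 1 in A (34.2%). Ccnd2 stayed higher in B with a log2 ratio of 1.38 in place of 1.78, and Ccne2 with 0.59 in place of 1.11. Rb1 stayed lower in B, at -1.04 in place of -0.53. Of the genes richer in GC, Ccne1 moved from 0.40 to 0.69, Ccnd3 from 0.041 to 0.37 and Cdk4 from 0.045 to 0.37. In size the order was then Ccnd2, Rb1, Ccne1 and Ccne2. Cdk6 (-0.072, exact binomial adjusted p = 0.62) and Rbl1 (-0.11, adjusted p = 0.28) were no longer called and changed sign. For Cdk6, whose longest transcript spans 11525 bases, the fit subtracted 0.72. The median log2 ratio in its own 10% of genes by GC content was 0.24. The parts of GC content and length in the fit were not separated.

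**Figure D3:**
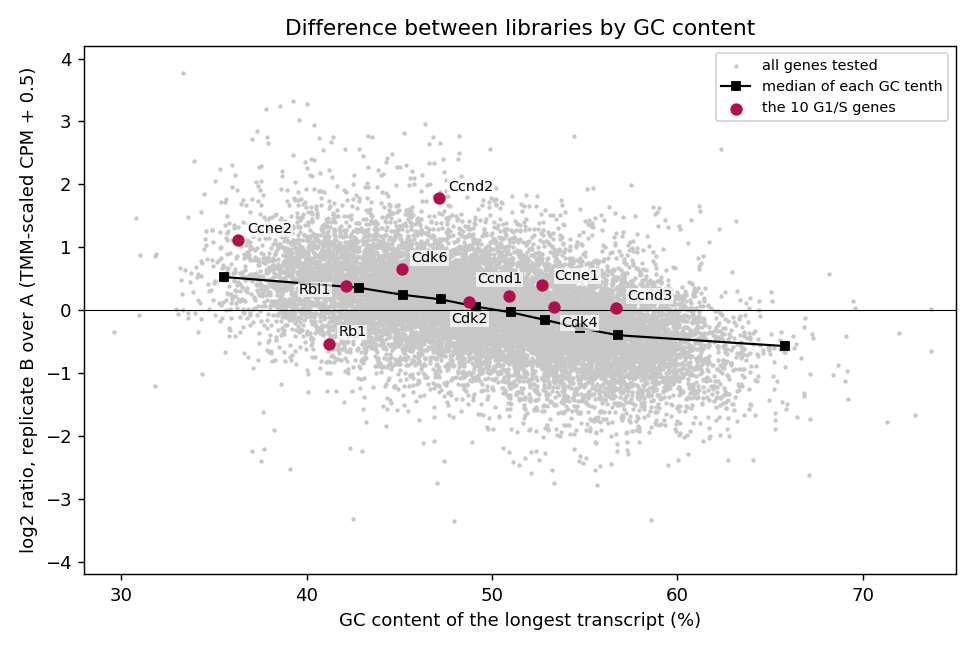
Log2 ratio of replicate B over A on TMM-scaled CPM + 0.5 against the GC content of the longest transcript for all tested genes (grey), with the median in each of 10 GC bins (black squares, at the middle of its range) and the 10 genes (red). The medians fall from 0.53 to -0.57, Rbl1 lies on the line, Ccnd2 above it and Rb1 below.

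The partners of these genes were taken from a list of 36 pathway genes, of which 34 reached 1 CPM in both libraries and were tested. Between the libraries 17 were called higher in B, 8 higher in A and 9 were not called, with a median log2 ratio of 0.14. Over all tested genes 38.4% were called higher in B and 38.4% in A. With library totals the split was 15 and 11, against 33.3% and 44.1% of all genes. After the GC and length fit it was 14 and 9, against 36.6% and 34.2% of genes, with 11 not called and a median of 0.090. E2f4, a repressor E2F that works with Rbl1 and Rbl2, was the most abundant of 8 E2F genes at 78.1 ± 6.09 RPKM. E2f1, an activator, was at 24.9 RPKM in A and 17.2 in B, and E2f5 at 19.4 and 17.2, so they were level in B. Next came E2f3 at 8.95 ± 3.15 and E2f2 at 7.46 ± 0.719. E2f8 (4.17 ± 2.42), E2f6 (4.12 ± 0.673) and E2f7 (3.49 ± 0.774) were lower. Of the 8, 5 were higher in B (38.4% of tested genes), led by E2f8 (2.55-fold) and E2f3 (1.77-fold), E2f1 was higher in A (1.36-fold; 38.4% of tested genes), and E2f2 and E2f5 were not called. With library totals those 2 were called higher in A as well. After the GC and length fit the E2f1 log2 ratio turned from -0.44 to 0.11 and was called higher in B (exact binomial adjusted p = 0.040). Of the 8 E2F genes, 6 were then higher in B (36.6% of genes) and 0 in A (34.2%). The DP genes encode the dimer partners of E2F: Tfdp1 had 20.3 RPKM in A but 41.5 in B (2.18-fold), and Tfdp2 was at 6.52 and 6.19, not called until the GC and length fit (log2 ratio -0.51).

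Most CDK inhibitor genes were higher in A. Of 7 listed, 6 were tested, 5 were higher in A, against 38.4% of tested genes, and 0 were higher in B, against 38.4%. Library totals gave the same counts. Their median log2 ratio was -0.80. Cdkn1a, which encodes p21, had 34.5 RPKM in A against 11.9 in B, a 2.73-fold difference (exact binomial adjusted p = 3.0e-229). Cdkn2a was 2.61-fold higher in A (9.55 and 3.43 RPKM), Cdkn1c 2.03-fold (17.7 and 8.17), Cdkn1b, which encodes p27, 1.54-fold (5.22 and 3.18) and Cdkn2d 1.46-fold (7.91 and 5.07). Cdkn2b was at 1.57 and 1.07 RPKM and not called (adjusted p = 0.12), and Cdkn2c had 8 counts in each library. After the GC and length fit 4 of the 6 stayed higher in A, against 34.2% of genes, and the median moved to -0.47. Cdkn2a moved from -1.28 to -0.58 and Cdkn1c from -1.0 to -0.36, whereas Cdkn1b moved from -0.61 to -1.02. Cdkn2d was no longer called, at -0.056 in place of -0.52. Cdkn2b turned to 0.11 and stayed not called.

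The most abundant other pathway genes were Cks1b, a small CDK-binding protein gene (115 RPKM on average), Mybl2, an activator of cell cycle genes (98.3), and Rbbp4, which encodes a histone-binding subunit of repressor complexes (60.9). Mybl2 and Rbbp4 were higher in B (1.24-fold and 1.26-fold) and Cks1b was higher in A (1.13-fold). After the GC and length fit the log2 ratio of Rbbp4 turned to -0.0095, and neither Rbbp4 nor Cks1b was called. Ccna1, a cyclin of the germ line, was the other listed gene under 1 CPM in both libraries, with 21 counts in A and 8 in B.

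**Figure D4:**
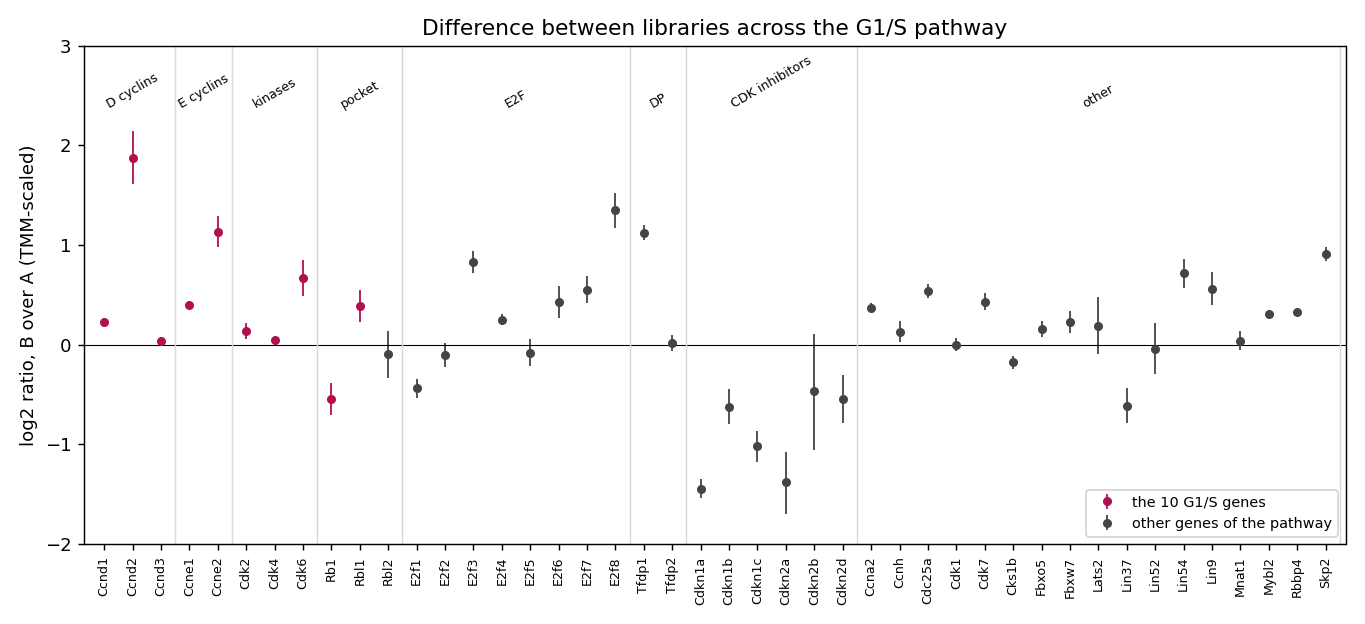
Log2 ratio of replicate B over A, TMM-scaled, for the 10 genes (red) and 34 tested partners (dark grey), grouped by role, with exact 95% limits that cover counting error. All 6 tested CDK inhibitors lie below 0 and 9 of the 10 genes above it, though Ccnd3 and Cdk4 turn with library totals and Cdk6, Rbl1 and Cdkn2b with the GC and length fit.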

How the data were processed

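For each library the authors deposited raw counts per Ensembl gene, as whole numbers. Tools and build are, per the submitters' processing notes, featureCounts 1.4.5-p1, STAR 2.4.2a and mm10, with no role given. For the strand setting and multi-mapping reads, what was done is not given in the sources used here. Names, lengths and GC content came from GENCODE M21 on GRCm38, which matched 42548 of 43629 identifiers. CPM used library totals, and RPKM the exon union. TMM came from edgeR 4.0.16 (R 4.3.3) on genes reaching 1 CPM in A or B, the genes tested with the exact binomial test. No model with residual spread compares groups here, since the series has 1 group. Paralog ratios have Clopper-Pearson limits, and a sign-flip test that takes each of the 2 libraries as 1 value could not go below p = 0.5, so none was run. All intervals are for counting error alone and hold no spread between replicates. Reads that carry no molecular identifier can be copies of 1 molecule, so the intervals may be too narrow even for that error. Pseudogenes were matched with BLAST+ 2.17.0 (identity of at least 90% over 300 bases). The binomial test and the GC and length fit were checked on simulated counts whose only noise was counting error. Any trend in them was with GC content, so the check covers neither spread between cultures nor the length part.

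The genes and lists were chosen with earlier results of these data known. Named in the text are the 10 genes, every listed pocket protein, E2F, DP and CDK inhibitor gene, and of the other partners the 3 with the highest mean RPKM and those under 1 CPM in both libraries. Genes of like pattern were not sought, since 2 libraries give 1 ratio per gene. The alternatives tried were library totals, size factors of DESeq2 1.42.0, other filters and pseudocounts (main 0.5), the GC and length fit, other gene lengths, TPM, added pseudogene counts and leaving out each replicate.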

Additional observations from a re-analysis of the deposited data

How the results depend on the processing

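Gene length decided 1 paralog order. The log2 ratio of Ccnd1 over Ccnd3 was 0.37 per exon union, -0.49 per longest transcript and -1.35 per transcript with the longest coding sequence. Under those 2 lengths Cdk4 over Cdk2 moved from 3.58 to 3.31 and 2.87, and Cdk2 over Cdk6 from 3.54 to 4.19 and 4.63, while Ccnd3 over Ccnd2 moved from 5.31 to 6.79 under the second. Without replicate A, Rb1 over Rbl1 was -0.40, and without replicate B it was 0.53. With 2 libraries, leaving one out only gives the value of the other, which says nothing of stability: Ccnd1 over Ccnd2 was then 4.85 or 6.50. Other paralog ratios moved by less than the replicate SD under the other lengths, as did all 10 with added pseudogene counts. With library totals, the log2 ratios of B over A turned to -0.052 for Ccnd3 and -0.048 for Cdk4, and Cdk2 was not called (exact binomial adjusted p = 0.33). Then 6 of the 10 genes were higher in B and 3 in A, against 33.3% and 44.1% of all genes, whose median shifted from -0.014 to -0.10. With no filter on low counts Ccnd3 was not called (adjusted p = 0.073). After the GC and length fit Cdk6 was at -0.072 and Rbl1 at -0.11. Counts of calls over all genes lay between 10269 and 11653 under every alternative, against 11201 of 14583 tested in the main setting. The number tested also changed: 11653 were called of 23698 with no filter, and 10292 of 13372 at 1 CPM in both libraries. The share called was thus much lower with no filter. No paired analysis was possible because the series has 1 group. Leaving out a replicate leaves no second library for the binomial test, so its counts have no such value. Ccnd2, with 152 counts in A, has the widest relative counting interval.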
